A study of Mus musculus with 15 samples.

Results

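RNA of newborn mouse cerebella was compared between 5 libraries in which the signal of glycogen synthase kinase 3 alpha (Gsk3a) was low and 5 control libraries from mice without Cre recombinase. The study holds 15 libraries, 1 array each, in 3 titled groups of 5. The 5 Gsk3a-low libraries were chosen by their value on the array row annotated to Gsk3a, which had to lie below 9.0 on the log2 scale, and not by their titles. They are titled DKO 2, DKO 4 and DKO 5 and, from the control that carries Cre, Math1-Cre 1 and Math1-Cre 2. The remaining 5 libraries that are titled as carrying Cre (DKO 1, DKO 3, Math1-Cre 3, Math1-Cre 4 and Math1-Cre 5) are called the other Cre-labelled libraries.

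The labels give the C57BL/6 strain for every mouse. Age is postnatal day 1 in the sample fields and in the design text, and postnatal day 2 in the growth protocol. The libraries titled DKO are described as deleted for both Gsk-3 isoforms in cerebellar granule neuron progenitors (CGNPs). Those titled Math1-Cre control are described as heterozygous for Gsk3a (Gska+-) with floxed Gskb (GskBff), and so as lacking only the beta isoform in these cells. The no-Cre controls also carry Gska+-, so both control groups share the heterozygous Gsk3a genotype. The description of no-Cre 5 leaves out the Gskb genotype. Math1 is another name of Atoh1, and a Cre driven from it acts in the granule neuron lineage and not in the whole tissue. Cells were dissociated from whole cerebella and, per the design text, enriched for CGNPs on a density gradient, so other cell types could remain. Each library is 1 replicate; the labels name no litter, and p-values therefore reflect no more than the scatter among these samples.

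Gsk-3 kinases phosphorylate beta-catenin and mark it for destruction, so that WNT target genes are transcribed when both isoforms are lost. CGNPs divide in the outer layer of the newborn cerebellum under Sonic hedgehog, depend on Atoh1 and Mycn while they divide, then leave the cell cycle, migrate inward and become granule neurons. Cells that stop dividing under stress often raise Cdkn1a, and cells that start apoptosis raise BH3-only genes such as Pmaip1. The genes of WNT signalling, mitosis and DNA replication are set aside here, and the account is of differentiation, survival, secreted signals and other cell types.

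The starts of 5 genes on which the account turns are printed to show what lies beside them: Cdkn1a, an arrest gene that rose, Mybpc1, the second largest rise outside the WNT list, and Chrnb4, Atoh1 and Nhlh1, which fell. Each run spans 250 bases before to 50 bases after the RefSeq start on assembly GRCm38.p6, read 5′ to 3′ on the gene's strand. They lie at chr17:29090729-29091028 (plus strand, the first of 2 starts in the table), chr10:88605103-88605402 (minus strand), chr9:55048495-55048794 (minus strand), chr6:64728875-64729174 (plus strand) and chr1:172057547-172057846 (minus strand). Capitals mark a TCF/LEF core (CTTTGAA or CTTTGAT), an E-box of the kind bound by proneural factors (CAGCTG or CAGATG) or a pair of p53 half-sites (2 copies of ACATGT with 4 bases between them), each searched on both strands.
Cdkn1a: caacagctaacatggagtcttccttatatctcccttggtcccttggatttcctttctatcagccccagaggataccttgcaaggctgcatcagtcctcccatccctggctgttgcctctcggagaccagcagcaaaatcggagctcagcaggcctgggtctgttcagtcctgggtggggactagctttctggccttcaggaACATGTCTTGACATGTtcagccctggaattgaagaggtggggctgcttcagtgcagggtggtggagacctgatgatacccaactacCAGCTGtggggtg
Mybpc1: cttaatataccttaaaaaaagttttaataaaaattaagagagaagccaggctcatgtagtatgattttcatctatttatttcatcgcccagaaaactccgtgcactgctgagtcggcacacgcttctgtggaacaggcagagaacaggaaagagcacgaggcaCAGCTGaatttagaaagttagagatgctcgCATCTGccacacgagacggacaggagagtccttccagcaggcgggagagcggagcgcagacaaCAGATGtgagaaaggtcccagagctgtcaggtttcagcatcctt
Chrnb4: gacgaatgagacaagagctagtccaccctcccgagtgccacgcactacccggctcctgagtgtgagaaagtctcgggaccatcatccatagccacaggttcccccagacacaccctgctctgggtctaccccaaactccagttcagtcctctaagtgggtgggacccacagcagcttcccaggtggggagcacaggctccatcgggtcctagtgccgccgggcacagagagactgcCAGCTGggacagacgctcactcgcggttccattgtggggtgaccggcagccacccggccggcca
Atoh1: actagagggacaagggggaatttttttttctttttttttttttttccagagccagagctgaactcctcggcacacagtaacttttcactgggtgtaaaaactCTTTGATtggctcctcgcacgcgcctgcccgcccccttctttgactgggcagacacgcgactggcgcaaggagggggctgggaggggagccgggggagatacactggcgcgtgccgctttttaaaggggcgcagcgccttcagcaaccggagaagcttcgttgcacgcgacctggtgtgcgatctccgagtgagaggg
Nhlh1: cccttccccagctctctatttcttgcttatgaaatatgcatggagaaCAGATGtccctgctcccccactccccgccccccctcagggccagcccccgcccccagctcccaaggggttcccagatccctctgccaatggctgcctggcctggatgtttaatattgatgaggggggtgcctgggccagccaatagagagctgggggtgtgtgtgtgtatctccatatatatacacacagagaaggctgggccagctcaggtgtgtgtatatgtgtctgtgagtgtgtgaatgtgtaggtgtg
The p53 pair was added to the search after the Cdkn1a run had been seen. Its match in Cdkn1a was therefore fixed in advance, and forms of the site other than these exact copies were not searched. The pair stands in 1 of the 16990 promoters of genes tested, that of Cdkn1a, which does not set this gene apart. Of these promoters 28.1% hold an E-box and 7.76% hold a TCF/LEF core. Among the 15 largest rises 9 have a promoter in the table, of which 3 hold an E-box (Cryba2, Ascl4 and Mybpc1) and 1 a TCF/LEF core (Ascl4). Among the 15 largest falls 13 have one, of which 6 hold an E-box (Nhlh1, Rassf4, Chrnb4, Plekho2, Insm2 and Carnmt1) and 0 a TCF/LEF core. A match describes these letters and not a bound site.

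The array carries 1 row for Gsk3a, annotated also to 9130221H12Rik. Its values were 8.22 for DKO 2, 7.89 for DKO 4, 8.27 for DKO 5, 8.25 for Math1-Cre 1 and 8.03 for Math1-Cre 2. In the no-Cre controls it read 9.42, 9.52, 9.59, 9.42 and 9.57. The libraries were selected on this row, so its means of 8.13 ± 0.17 (SD, n = 5) and 9.50 ± 0.08 (SD, n = 5) are given with no test. The member nearest to the limit was DKO 5 at 8.27, and the nearest library outside it was DKO 3 at 9.37. Math1-Cre 1 and 2 thus go against their titles, as do DKO 1 and DKO 3, which lay at 9.47 and 9.37. Gsk3b, the other isoform, did not separate the groups, at 10.59 to 10.98 in the Gsk3a-low and 10.61 to 10.84 in the no-Cre libraries. The difference was -0.02 ± 0.08 (standard error, SE; limma adjusted p = 0.975), and it turned to 0.03 when arrays were centred on their medians. Whether floxed Gskb was deleted in CGNPs was not tested and cannot be read from this row over mixed cells.

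**Figure D1:**
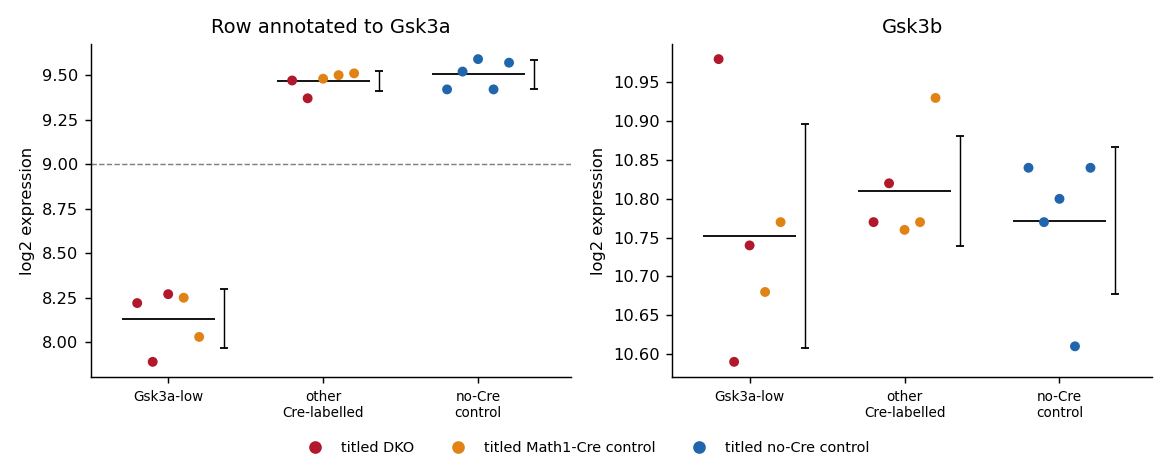
Log2 expression (vertical axes) of the row annotated to Gsk3a (left) and of Gsk3b (right) in each of the 15 libraries, coloured by title; lines are means, error bars are SD (n = 5 per column), and the dashed line is the limit of 9.0. On the left the 5 Gsk3a-low libraries lie between 7.89 and 8.27 by choice, with no library between 8.27 and 9.37; on the right the 3 columns overlap.

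The tissue marks matched a newborn cerebellum. Zic1, a transcription factor of the granule lineage, lay between 11.12 and 11.51 in the 10 libraries compared, and the Purkinje cell genes Pcp4 and Calb1 lay between 12.18 and 12.43 and between 10.80 and 11.37. Correlations between libraries over genes ran from 0.981 to 0.997. The arrays differed in spread: the interquartile range was 3.51 in DKO 5, 3.56 in DKO 4 and 3.43 in no-Cre 4, while the remaining 7 arrays ran from 3.73 to 3.85. On those 3 arrays olfactory and vomeronasal receptor genes, which stand for background, had medians of 3.97 to 4.05, against 3.49 to 3.71 on the other 7. Levels below about 4 are therefore near background, and the part of array spread in a single small difference was not tested; counts without these 3 arrays are given with the first comparison.

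Against the no-Cre controls, 375 of 22180 genes (1.69%) passed an adjusted p under 0.05 in limma, the rule for every call that follows. Of these 142 (0.64%) were higher and 233 (1.05%) lower in the Gsk3a-low libraries. The groups did not overlap for 663 genes (2.99%), 352 of them called. The rises were the larger changes: 45 genes rose and 10 fell by more than 1 on the log2 scale, while the median over all genes was -0.00. Outside the WNT, mitosis and replication lists there were 254 called genes, 127 higher and 127 lower. Centring the arrays on their medians turned 142 higher and 233 lower into 192 and 200. Without the 3 arrays of narrow spread 494 genes were called.

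Single libraries moved that count. Leaving out no-Cre 2 gave 202 calls, no-Cre 5 gave 220, no-Cre 1 gave 226, Math1-Cre 1 gave 231 and DKO 2 gave 243, while leaving out no-Cre 4 gave 503. With only the 3 libraries titled DKO against the no-Cre controls it was 131 (0.591%), and with only the 2 titled Math1-Cre it was 126 (0.568%). All of the 15 largest rises outside these 3 lists passed whichever library was left out, as did 14 of the 15 largest falls. With the DKO-titled libraries alone 14 of these rises and 13 of these falls passed. With the Math1-Cre-titled alone 14 of the rises and 8 of the falls did. Both sets were taken from called genes whose groups do not overlap, so a lack of overlap in their members was set by that choice. Since the libraries were selected on 1 row with other genes already known to split the same way, a p-value here says how well a gene separates libraries picked in this manner. In bulk RNA fewer cells of a type and less RNA per cell cannot be told apart.

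Genes of cell death and of cell cycle arrest held the largest measured rise outside the WNT list. Pmaip1, whose product Noxa is a BH3-only protein that opposes the survival protein MCL1, measured 9.62-fold higher, from controls near background, so that the size of this fold rests on the background level. Cdkn1a, the p21 inhibitor of cyclin-dependent kinases, was 2.3-fold higher, Gadd45g, a growth arrest gene, 2.27-fold and Hrk, a second BH3-only gene, 1.46-fold. These 4 genes stood nearly alone in their lists: of 37 measured p53 and checkpoint genes 3 rose and 0 fell, and of 36 genes of the BCL2 family and caspases 2 rose and 0 fell, against 0.64% of all genes that rose.

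In the order DKO 2, DKO 4, DKO 5, Math1-Cre 1, Math1-Cre 2, kept throughout, Pmaip1 read 6.39, 7.63, 6.90, 7.29 and 7.17, and in no-Cre 1 to 5 it read 3.79, 3.96, 3.56, 3.72 and 4.00. Every Gsk3a-low library lay above every control, as its choice among the 15 largest rises required, and the controls were all near background. The difference was 3.27 ± 0.19 (SE; limma adjusted p = 4.79e-06), with 3.16 for the DKO-titled and 3.42 for the Math1-Cre-titled libraries alone. Cdkn1a read 11.08, 10.95, 10.86, 10.87 and 10.93 against 9.72, 9.63, 9.87, 9.54 and 9.91. It was high in both groups and the Gsk3a-low libraries were tightly grouped, at 10.94 ± 0.09 (SD, n = 5) against 9.73 ± 0.15 (SD, n = 5). Its difference was 1.20 ± 0.09 (SE; limma adjusted p = 2.16e-05). Gadd45g read 6.94, 7.18, 6.82, 6.98 and 7.00 against 6.10, 5.90, 5.71, 5.46 and 5.83, again with no overlap (1.19 ± 0.11 SE; limma adjusted p = 0.000269). Hrk read 7.36, 7.36, 7.18, 7.48 and 7.49 against 6.98, 6.61, 6.96, 6.69 and 6.93. The gap between the groups was narrow, and the difference was 0.54 ± 0.10 (SE; limma adjusted p = 0.0138), without a call for the DKO-titled libraries alone (adjusted p = 0.129) or the Math1-Cre-titled alone (adjusted p = 0.0774).

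Other genes that p53 is known to induce did not pass. Bbc3, which encodes the BH3-only protein PUMA, differed by -0.25 ± 0.10 (SE), Mdm2, the ligase that degrades p53, by 0.00 ± 0.08, Ccng1 by -0.09 ± 0.11, Phlda3 by -0.12 ± 0.07 and Zmat3 by -0.13 ± 0.10. Their limma adjusted p-values were 0.43, 0.998, 0.893, 0.704 and 0.802. The median over the 37 genes was -0.04, beside -0.00 over all genes, with 16 differences positive and 21 negative. Of the positive ones, Trp53inp1, Btg2 and Ddit4 differed by 0.26, 0.39 and 0.43 (limma adjusted p = 0.505, 0.369 and 0.311). Without the 3 arrays of narrow spread Trp53inp1 passed (0.37, limma adjusted p = 0.0463), and 5 genes of the list were called higher. The survival genes Bcl2, Bcl2l1 and Mcl1 differed by 0.05 ± 0.09, -0.09 ± 0.08 and -0.01 ± 0.10 (SE), and Bcl2l11, which encodes the BH3-only protein BIM, by 0.35 ± 0.16, with adjusted p-values of 0.946, 0.835, 0.989 and 0.537. Of 10 genes of CDK inhibitors and of the retinoblastoma (pocket) proteins Cdkn1a alone passed (10%, against 1.69% of all genes). The median of this list was -0.14. Cdkn1b and Cdkn2c, which encode p27 and p18, differed by -0.34 ± 0.11 and -0.41 ± 0.11 (SE; limma adjusted p = 0.225 and 0.123), and Cdkn2a lay near background in both groups, at 3.38 to 3.52 and 3.24 to 3.52. Cdkn2c passed without no-Cre 4 (adjusted p = 0.0354).

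**Figure D2:**
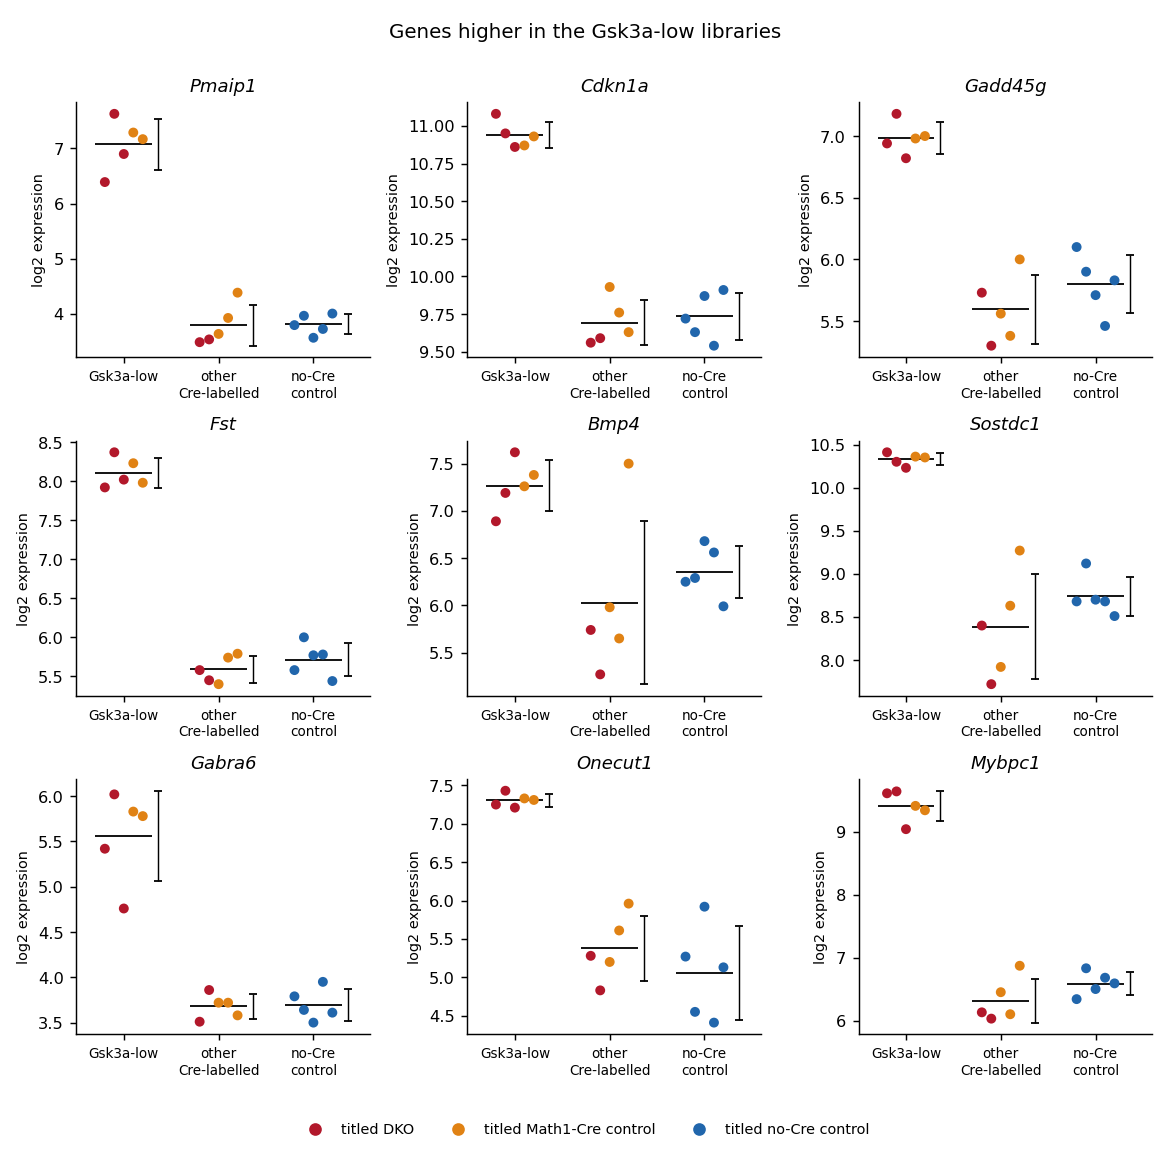
Log2 expression (vertical axes, not starting at 0) of 9 genes that were higher in the Gsk3a-low libraries, 1 point per library coloured by title; lines are means and error bars SD (n = 5 per column). For Pmaip1 the Gsk3a-low libraries lie between 6.39 and 7.63 and all others between 3.48 and 4.38, and orange points of the Math1-Cre title sit with the red points of the DKO title in the first column; for Bmp4 the other Cre-labelled libraries spread from 5.27 to 7.50.

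Among secreted signals, 2 BMP ligand genes and the extracellular inhibitor genes Fst and Sostdc1 rose. Most of the BMP, activin and TGF-beta list did not pass. Follistatin (Fst), which binds activins and some BMPs, was 5.25-fold higher, Sostdc1, an extracellular inhibitor of BMP and WNT ligands, 3.02-fold, and the ligand genes Bmp4 and Bmp7 1.88-fold and 1.56-fold. Of 56 measured genes of BMP, activin and TGF-beta signalling 5 rose (8.93%, against 0.64% of all genes) and 0 fell, with a list median of -0.04. The 5 were Fst, Bmp4, Bmp7, Fstl4 and Tgfb2, while Sostdc1 was not on this list.

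Fst read 7.92, 8.37, 8.02, 8.23 and 7.98 in the Gsk3a-low libraries against 5.58, 6.00, 5.77, 5.78 and 5.44. It was among the cleanest separations, with 2.39 ± 0.12 (SE; limma adjusted p = 1.05e-06) and the same 2.39 in the DKO-titled and in the Math1-Cre-titled libraries alone. Sostdc1 read 10.41, 10.30, 10.23, 10.36 and 10.35 against 8.68, 9.12, 8.70, 8.68 and 8.51 (1.59 ± 0.10 SE; limma adjusted p = 1.01e-05). Sostdc1 is also made by choroid plexus and stood in that marker list. It was the 1 called gene of 17 there (5.88%, against 1.69% of all genes). The choroid plexus gene Ttr differed by -0.05 ± 0.09 (SE), Otx2 by 0.11 ± 0.09 and Folr1 by -0.39 ± 0.22 (limma adjusted p = 0.934, 0.819 and 0.66), and the mean level of the list ran from 6.76 to 7.19 in the Gsk3a-low and from 6.77 to 7.08 in the no-Cre libraries.

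Bmp4 read 6.89, 7.19, 7.62, 7.26 and 7.38 against 6.25, 6.29, 6.68, 6.56 and 5.99. The groups did not overlap (0.91 ± 0.15 SE; limma adjusted p = 0.00962), but the other Cre-labelled libraries ranged from 5.27 to 7.50 and against them Bmp4 did not pass (adjusted p = 0.0639). Bmp7 read 9.17, 9.64, 9.62, 9.30 and 9.31 against 8.87, 8.90, 8.70, 8.67 and 8.69 (0.64 ± 0.10 SE; limma adjusted p = 0.00823). Math1-Cre 5, of the other Cre-labelled libraries, lay at 9.42, within the Gsk3a-low range, though Bmp7 passed against them (limma adjusted p = 0.0311). With the DKO-titled libraries alone Bmp7 passed (limma adjusted p = 0.0417), and with the Math1-Cre-titled alone it did not (0.0697). The 2 remaining calls were small: Fstl4, a follistatin-like gene, at 0.53 ± 0.11 (SE; limma adjusted p = 0.0381) and Tgfb2 at 0.28 ± 0.06 (SE; limma adjusted p = 0.0299). Fstl4 kept its call only without DKO 5 or without no-Cre 3, and Tgfb2 only without no-Cre 4. The activin subunit genes Inhba and Inhbb differed by 0.14 ± 0.12 and -0.17 ± 0.09 (SE), and the BMP response genes Id1, Id2, Id3, Smad6 and Smad7 by 0.17 ± 0.10, -0.03 ± 0.07, 0.09 ± 0.08, 0.03 ± 0.11 and -0.24 ± 0.12. None of these 7 passed, with limma adjusted p-values from 0.596 to 0.973.

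The other large rises do not belong to a single pathway. Mybpc1, known as a myosin-binding protein of slow muscle, was 7.06-fold higher. It read 9.61, 9.64, 9.04, 9.41 and 9.34 against 6.34, 6.83, 6.50, 6.68 and 6.59 (2.82 ± 0.12 SE; limma adjusted p = 3.97e-07). Onecut1, a homeodomain transcription factor gene of several neuron types, was tightly grouped in the Gsk3a-low libraries, at 7.25, 7.43, 7.21, 7.33 and 7.31, and scattered in the controls, at 5.27, 4.55, 5.92, 4.41 and 5.13. It differed by 2.25 ± 0.23 (SE; limma adjusted p = 0.000446), its relative Onecut2 by 0.99 ± 0.14 (SE; limma adjusted p = 0.00326) and Onecut3 by 0.06 ± 0.13 (SE; adjusted p = 0.953). Myo1e, a class I myosin, was 3.88-fold higher and high enough to be far from background, at 9.10 to 9.39 against 7.03 to 7.48 (limma adjusted p = 3.79e-06).

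A further 8 of the 15 largest rises were dim in the controls. These were Cryba2, a lens crystallin (6.92-fold), Adam18, an ADAM family gene (5.56-fold), Esyt3, an extended synaptotagmin (5.33-fold), Ism1, which encodes the secreted isthmin (3.77-fold), the interleukin 6 receptor gene Il6ra (3.65-fold), Ascl4, a basic helix-loop-helix gene (3-fold), Gpr50, an orphan receptor gene (3-fold), and Emilin3, an extracellular matrix gene (2.97-fold). The controls of Cryba2, Adam18, Esyt3 and Emilin3 lay near background, between 3.38 and 3.87, so their folds and their order rest on the background level too. Il6ra and Gpr50 were the brightest of these in the controls, at up to 5.65 and 5.56, and the other 6 had controls between 3.38 and 4.70. Their limma adjusted p-values ran from 7.95e-05 for Ascl4 to 0.00636 for Gpr50. The Gsk3a-low libraries were less uniform for them: Cryba2 read 6.91, 6.25, 4.98, 6.48 and 6.88, with DKO 5 lowest, and DKO 5 was also lowest for Adam18, Esyt3, Ism1, Il6ra, Gpr50, Emilin3 and Gabra6. DKO 5 had one of the narrow arrays, and its part in this order was not tested.

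Among genes that were lower, some of the granule neuron progenitor list, which also holds genes of early granule neurons such as Nhlh1, stood beside the mitotic genes. Of 29 measured genes of the progenitor list 6 fell (against 1.05% of all genes), 0 rose and 23 did not pass, with a list median of -0.16. The mean level of the list was 8.18 to 8.24 in the Gsk3a-low and 8.38 to 8.59 in the no-Cre libraries. The 6 were Mfap4, an extracellular microfibril gene used as a progenitor marker, Nhlh1, a basic helix-loop-helix gene of early granule neurons, Atoh1, the master regulator of the lineage, Mycn, the Sonic hedgehog effector, and the homeobox genes Tlx3 and Barhl1. In the same libraries 68 of 112 mitosis genes and 37 of 101 replication and histone genes were lower and none higher.

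Mfap4 read 6.56, 6.66, 6.90, 6.37 and 6.42 against 8.35, 8.31, 8.09, 8.03 and 8.36 and was 3.13-fold lower (-1.64 ± 0.11 SE; limma adjusted p = 1.45e-05). Nhlh1 read 7.29, 7.34, 7.56, 7.41 and 7.23 against 8.94, 8.56, 8.45, 8.61 and 8.44 and was 2.35-fold lower (-1.23 ± 0.10 SE; limma adjusted p = 8.68e-05). For both genes all Gsk3a-low libraries lay below all controls, as the choice of the 15 largest falls required, and the margin was wide. Atoh1 read 7.81, 8.57, 8.65, 8.34 and 8.03 against 9.22, 9.31, 8.94, 9.24 and 8.99. It was the most variable of the 6 within the Gsk3a-low libraries, at 8.28 ± 0.35 (SD, n = 5). The fall of 1.81-fold (-0.86 ± 0.15 SE; limma adjusted p = 0.0148) lost its call without no-Cre 1 or without no-Cre 2 (highest adjusted p = 0.0532), and Atoh1 did not pass against the other Cre-labelled libraries, which lay at 8.54 to 9.09 (-0.54, adjusted p = 0.147). Mycn read 6.69, 6.98, 7.11, 6.85 and 6.82 against 7.81, 7.52, 7.39, 7.53 and 7.58 (-0.68 ± 0.10 SE, limma adjusted p = 0.00461). With the DKO-titled libraries alone Atoh1 and Mycn did not pass (limma adjusted p = 0.115 and 0.0592). With the Math1-Cre-titled alone both did (limma adjusted p = 0.0265 and 0.0353).

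Tlx3 and Barhl1 differed by -0.52 ± 0.10 and -0.52 ± 0.12 (SE; limma adjusted p = 0.0157 and 0.0483). Tlx3 lost its call without Math1-Cre 1, no-Cre 1, no-Cre 2 or no-Cre 5, and Barhl1 kept its call only without no-Cre 3. Other genes of the lineage did not pass: Pax6 differed by -0.19 ± 0.10, Zic1 by 0.04 ± 0.09 and Nhlh2, the relative of Nhlh1, by -0.20 ± 0.08 (SE; limma adjusted p = 0.62, 0.958 and 0.446). Of 18 genes of Sonic hedgehog signalling Mycn alone passed (5.56%, against 1.69% of all genes). The direct hedgehog readouts Gli1 and Ptch1 differed by -0.42 ± 0.15 and -0.09 ± 0.08 (SE; limma adjusted p = 0.309 and 0.849).

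**Figure D3:**
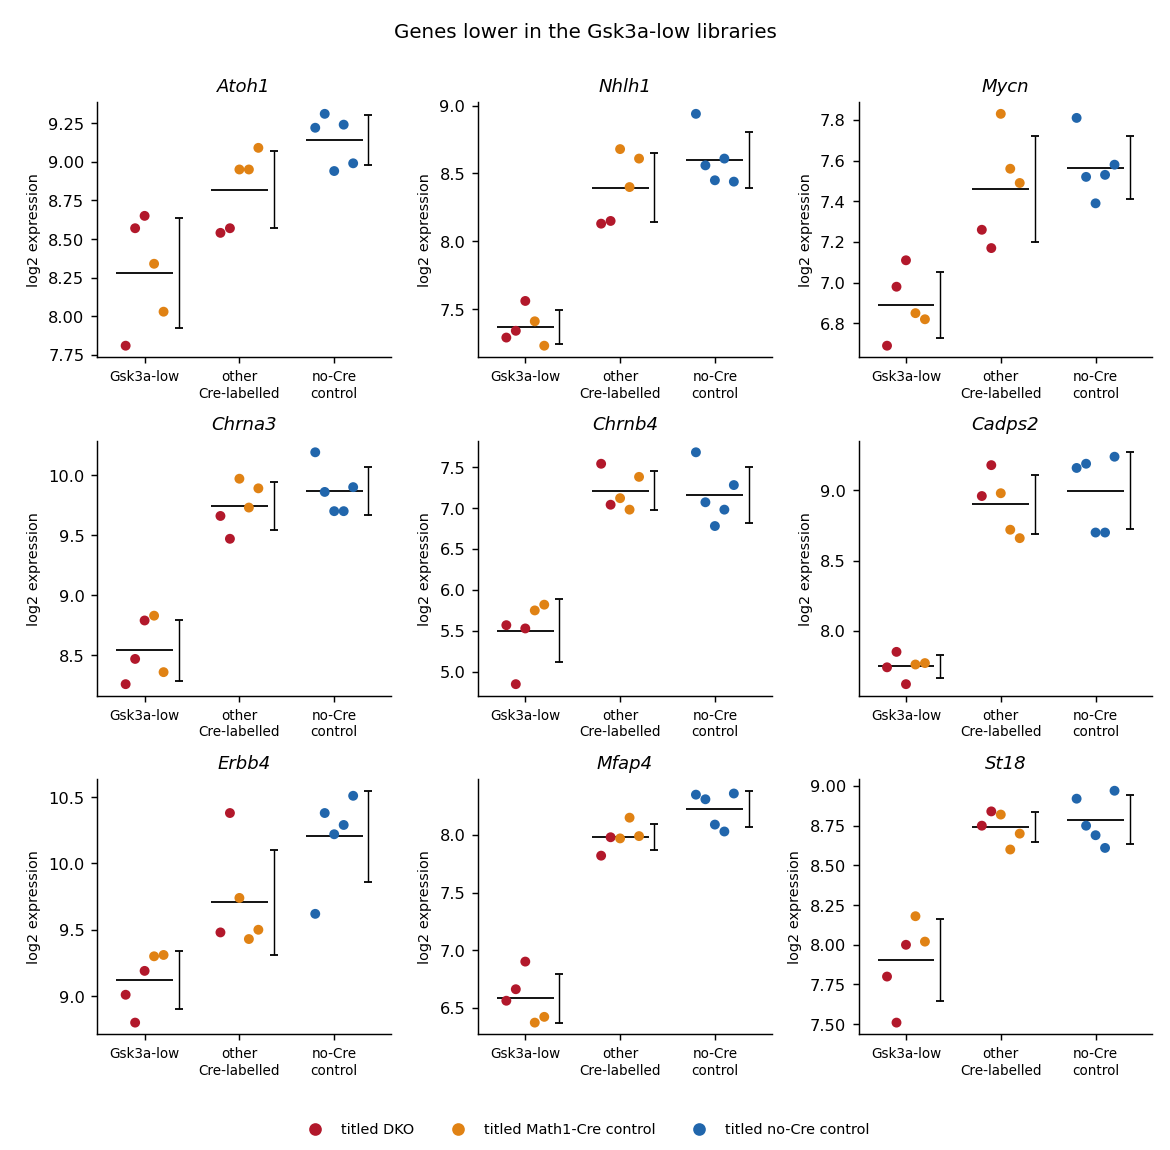
Log2 expression (vertical axes, not starting at 0) of 9 genes that were lower in the Gsk3a-low libraries than in the no-Cre controls, 1 point per library coloured by title; lines are means and error bars SD (n = 5 per column). For Nhlh1 the first column lies at 7.23 to 7.56 and the third at 8.44 to 8.94, while for Atoh1 the other Cre-labelled libraries, at 8.54 to 9.09, reach into the range of the Gsk3a-low libraries, and for Erbb4 no-Cre 1 at 9.62 stands below the other controls.

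The nicotinic receptor genes Chrna3 and Chrnb4 fell as a pair. They encode the alpha 3 and beta 4 subunits, which assemble into 1 acetylcholine-gated channel best known from autonomic ganglia. Chrna3 read 8.26, 8.47, 8.79, 8.83 and 8.36 against 10.19, 9.86, 9.70, 9.70 and 9.90 and was 2.51-fold lower (-1.33 ± 0.13 SE; limma adjusted p = 0.000385). Chrnb4 read 5.57, 4.85, 5.53, 5.75 and 5.82 against 7.68, 7.07, 6.78, 6.98 and 7.28 and was 3.15-fold lower (-1.65 ± 0.20 SE; limma adjusted p = 0.00132). Both were among the 15 largest falls, which were taken from genes without overlap between the groups. Each passed with the DKO-titled and with the Math1-Cre-titled libraries alone. They were the 2 called genes of 21 nicotinic and muscarinic subunits (9.52%, against 1.69% of all genes), whose median was -0.02. Chrna5, which lies beside them in the genome, differed by -0.33 ± 0.12 (SE; adjusted p = 0.381), and Chrna4, Chrna7 and Chrnb2 differed by 0.11 ± 0.08, 0.02 ± 0.14 and -0.00 ± 0.07 (limma adjusted p = 0.786, 0.984 and 0.996).

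More genes of granule neuron differentiation fell than rose. Of 51 measured, 1 rose and 5 fell, where 0.64% of all genes rose and 1.05% fell. Of the differences 36 were negative and 15 positive, and the median was -0.08. The gene that rose was Gabra6, the GABA-A receptor subunit of mature granule neurons. It read 5.42, 6.02, 4.76, 5.83 and 5.78 against 3.79, 3.64, 3.50, 3.95 and 3.61, so that controls were near background and every Gsk3a-low library above them (3.63-fold; 1.86 ± 0.20 SE; limma adjusted p = 0.000682). Grin2c, the NMDA receptor subunit that also marks mature granule neurons, went the other way, at 3.92, 3.78, 3.49, 3.97 and 4.08 against 4.94, 4.84, 4.72, 4.29 and 4.98 (-0.91 ± 0.14 SE; limma adjusted p = 0.00748). The Gsk3a-low values of Grin2c lay near background, and a dimmer second row of the gene differed by 0.02. Gabrd, a further subunit of mature granule neurons, stayed near background in both groups (0.07 ± 0.07 SE; adjusted p = 0.867).

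Cadps2, which primes the release of dense-core vesicles from granule neurons, read 7.74, 7.85, 7.62, 7.76 and 7.77 against 9.16, 9.19, 8.70, 8.70 and 9.24. The Gsk3a-low values were nearly equal, at 7.75 ± 0.09 (SD, n = 5), and the fall was 2.38-fold (-1.25 ± 0.12 SE; limma adjusted p = 0.000261). Erbb4, a neuregulin receptor gene, read 9.01, 8.80, 9.19, 9.30 and 9.31 against 9.62, 10.38, 10.22, 10.29 and 10.51 (-1.08 ± 0.16 SE; limma adjusted p = 0.00529). It did not pass against the other Cre-labelled libraries, which ran from 9.43 to 10.38 (-0.58, adjusted p = 0.231). The netrin receptor gene Unc5b and the secreted Reln, which guides migrating neurons, were lower by smaller amounts, at -0.59 ± 0.11 and -0.41 ± 0.09 (SE; limma adjusted p = 0.0193 and 0.0468). Unc5b lost its call without DKO 2, DKO 4, Math1-Cre 1, no-Cre 1, no-Cre 2 or no-Cre 5, and Reln kept its call only without no-Cre 3 or no-Cre 4.

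Genes carried by postmitotic neurons in general did not pass. Dcx and Tubb3 differed by -0.06 ± 0.08 and 0.10 ± 0.07, Cntn2, the adhesion gene of newly postmitotic granule neurons, by -0.33 ± 0.09, Neurod1 by -0.54 ± 0.12 and Rbfox3 by -0.24 ± 0.09 (SE). Their limma adjusted p-values were 0.909, 0.783, 0.121, 0.0517 and 0.367. Neurod1 was just short of the threshold: its groups did not overlap, at 4.57 to 5.01 against 5.13 to 5.73, and it passed without no-Cre 4 (adjusted p = 0.0424). Of 48 voltage-gated channel genes 1 rose and 2 fell, and of 72 axon guidance and adhesion genes 0 rose and 4 fell; the called shares of 6.25% and 5.56% compare with 1.69% of all genes. The channel genes were Cacna1i, a T-type calcium channel (0.64 ± 0.12 SE), and the potassium channels Kcnj3 (-0.41 ± 0.07) and Kcnh5 (-0.38 ± 0.08), with limma adjusted p-values of 0.0242, 0.0144 and 0.0481. The guidance genes were the cadherin Cdh7 (-0.63 ± 0.12 SE), Unc5b, the plexin Plxnd1 (-0.48 ± 0.10) and the semaphorin Sema7a (-0.47 ± 0.09), with 0.0172, 0.0193, 0.0314 and 0.0256. Each of these calls was lost without no-Cre 2, Kcnj3 only then; Cdh7 also lost its call without Math1-Cre 1 or no-Cre 5, and the other 5 genes did so without DKO 2, no-Cre 5 and 2 or more further libraries.

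Growth factor genes changed in single members. Of 63 measured genes of growth factors and their receptors, 1 rose and 4 fell (7.94% called, against 1.69% of all genes). Igfbp2, an insulin-like growth factor binding protein, read 9.29, 9.21, 9.50, 9.34 and 9.29 against 8.74, 8.82, 8.75, 8.84 and 8.35 (0.63 ± 0.10 SE; limma adjusted p = 0.00799). Fgf5 read 6.61, 6.86, 6.78, 6.86 and 6.68 against 7.80, 7.59, 7.49, 7.37 and 7.95 (-0.88 ± 0.11 SE; limma adjusted p = 0.00196). Besides Fgf5 and Erbb4, the ligand gene Pdgfc was lower (-0.61 ± 0.10 SE; limma adjusted p = 0.00855), as was the receptor gene Egfr (-0.43 ± 0.09 SE; limma adjusted p = 0.0432), whose call held only without DKO 5 or without no-Cre 4 when single libraries were left out. Of 22 Notch genes the target Hey1 alone passed (4.55%, against 1.69% of all genes). It read 8.40, 8.40, 8.42, 8.53 and 8.41 against 9.37, 9.27, 8.96, 8.98 and 9.15 (-0.72 ± 0.09 SE, limma adjusted p = 0.00155). The Gsk3a-low values of Hey1 hardly varied, while the related targets Hes1 and Hes5 differed by -0.21 ± 0.11 and 0.06 ± 0.11 (SE; limma adjusted p = 0.63 and 0.942).

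The remaining large falls were of single genes. Rnf148, a RING finger gene, was 2.72-fold lower, Carnmt1, a carnosine N-methyltransferase gene, 2.1-fold, and Insm2, a zinc finger gene whose relative Insm1 marks newborn neurons, 1.98-fold. Their limma adjusted p-values were 0.000505, 0.0004 and 0.0011, and Insm1 differed by -0.24 ± 0.09 (SE; adjusted p = 0.361). Rassf4 and Plekho2 were 1.95-fold and 1.92-fold lower, St18, a zinc finger gene, 1.85-fold, and Grid2ip, which encodes a scaffold known from Purkinje cell synapses, 1.87-fold, with limma adjusted p-values of 0.00591, 0.00482, 0.00346 and 0.0239. Grid2ip lost its call when DKO 4 or any of the controls no-Cre 1, 2 and 5 was left out.

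Other forms of cell stress and of metabolism showed 0 called genes. This held for 35 genes of the NRF2 and amino acid stress responses, 25 immediate early genes, 17 genes of glycogen metabolism, in which Gsk-3 was first known, 26 of glycolysis and 22 of the interferon response. Without adjustment 4, 6, 2, 3 and 7 of them had p under 0.05, which 9.19% of all genes had. The interferon genes leaned lower without a call: 16 of 22 differences were negative, the median was -0.14, and the mean level was 4.77 to 4.89 in the Gsk3a-low and 4.87 to 5.01 in the no-Cre libraries. The immediate early genes leaned the other way, with 17 of 25 differences positive and a median of 0.04. Ddit3, the stress factor CHOP, differed by 0.13 ± 0.10, Atf4 by -0.00 ± 0.09, Nqo1 by 0.15 ± 0.17, Hmox1 by -0.13 ± 0.21 and Gys1, muscle glycogen synthase, by -0.07 ± 0.09 (SE). The early genes Egr1 and Atf3 had the higher values of their list, at 0.59 ± 0.19 and 0.43 ± 0.12 (SE; limma adjusted p = 0.256 and 0.149), and Fos lay near background in both groups.

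Among markers of the other cerebellar cell types single genes were called. The called shares were 12.5% of unipolar brush cell and nuclei genes and 10% of oligodendrocyte lineage genes, against 1.69% of all genes. For astrocyte and Bergmann glia genes the share was 4%. None passed among 17 Purkinje cell, 18 interneuron, 22 microglial, 22 endothelial, 24 pericyte and meningeal and 6 erythroid genes, of which 0, 1, 1, 5, 3 and 0 had an unadjusted p under 0.05, beside 9.19% of all genes. Of 16 genes of unipolar brush cells and cerebellar nuclei 2 rose, Onecut1 and Onecut2; Eomes, which defines unipolar brush cells, differed by -0.31 ± 0.13, Tbr1 by -0.19 ± 0.09 and Lmx1a by -0.04 ± 0.11 (SE; limma adjusted p = 0.472, 0.559 and 0.964). Of 25 astrocyte and Bergmann glia genes Glul, glutamine synthetase, rose by 0.37 ± 0.08 (SE; limma adjusted p = 0.047), a call that held only without DKO 4 or without DKO 5, and Slc1a3 and Gfap differed by 0.02 ± 0.08 and 0.30 ± 0.26. Of 20 oligodendrocyte lineage genes 2 rose, Bmp4 and Bcas1 (0.67 ± 0.08 SE; limma adjusted p = 0.00164), while Olig2, Pdgfra and Mbp differed by -0.03 ± 0.10, -0.19 ± 0.11 and -0.34 ± 0.13 (limma adjusted p = 0.97, 0.687 and 0.404).

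Vessel genes leaned lower than in the no-Cre controls without a call. Of 22 endothelial genes 19 had a negative difference and the median was -0.20, beside -0.00 over all genes. Their mean level was 6.42 to 6.72 in the Gsk3a-low and 6.57 to 6.93 in the no-Cre libraries. The groups overlapped only through no-Cre 4, a narrow array, at 6.57, while the other controls ran from 6.79 to 6.93. Without no-Cre 4, 2 of these genes were called lower, and without the 3 narrow arrays 3 were. With quantile normalization or median centring 0 were called. In the other Cre-labelled libraries the mean level of the list ran from 6.29 to 7.07, and the median difference from them was -0.07. The vascular receptor Kdr differed by -0.48 ± 0.12 (SE; limma adjusted p = 0.0754), Cdh5 by -0.20 ± 0.15 and Pecam1 by -0.08 ± 0.07. Pericyte and meningeal genes had a mean level of 6.71 to 6.76 in 4 Gsk3a-low libraries and 7.25 in DKO 5. DKO 5 also had the highest Bmp4 of the Gsk3a-low libraries, a gene that meningeal cells can make, and the other Cre-labelled library with Bmp4 at 7.50, Math1-Cre 5, had a list mean of 7.50. The part of these cells in the level of Bmp4 was not tested; in Math1-Cre 1 and 2, with list means of 6.71 and 6.72, Bmp4 lay at 7.26 and 7.38.

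Neurons of the neighbouring brainstem varied from library to library within both groups. The noradrenaline synthesis gene Dbh read 6.93, 7.25, 7.81, 8.09 and 7.24 in the Gsk3a-low libraries and 4.43, 4.78, 7.82, 3.71 and 7.28 in the no-Cre controls (1.86 ± 0.70 SE; limma adjusted p = 0.385). All 5 Gsk3a-low libraries were high, and the controls fell into high and low. The serotonin transporter gene Slc6a4 ran from 4.52 to 7.16 and from 3.42 to 8.56. Of 20 brainstem neuron markers 0 passed, and 3 had an unadjusted p under 0.05. Onecut1, which such neurons can also make, was scattered in the controls and highest in no-Cre 3, at 5.92, the control in which Dbh was highest; in no-Cre 5, with Dbh at 7.28, Onecut1 lay at 5.13, and the part of these cells in its rise was not tested. Of 25 hindbrain Hox genes 1 was called (4%, against 1.69% of all genes), Hoxb1, which rose near background. It read 3.50, 3.56, 3.35, 3.53 and 4.54 against 2.73 to 2.93 (0.89 ± 0.19 SE, limma adjusted p = 0.0364). Its call held only without DKO 5, Math1-Cre 2 or no-Cre 4.

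**Figure D4:**
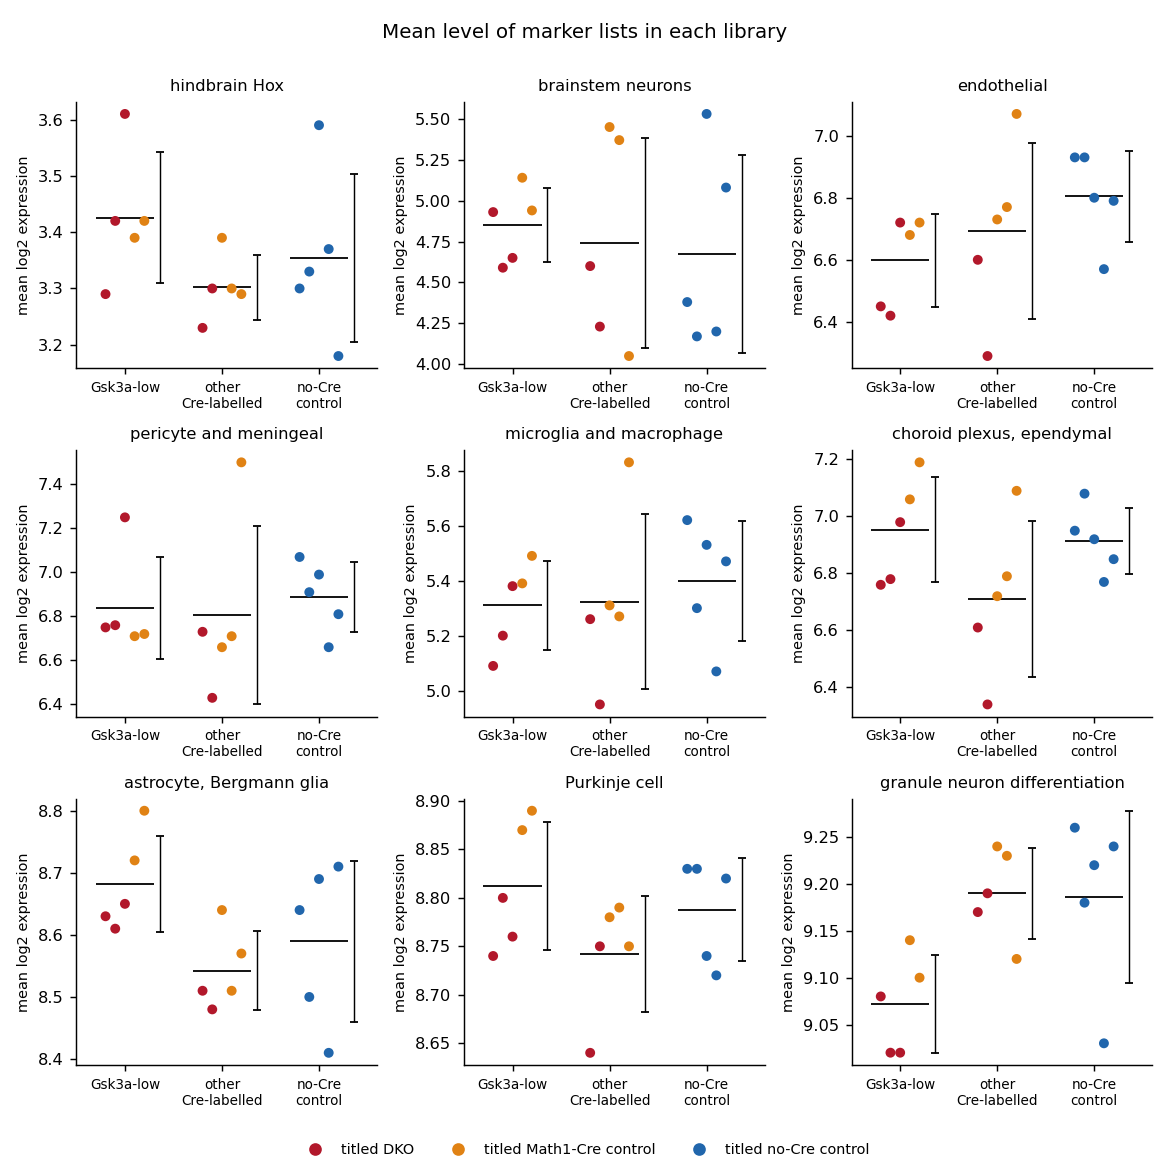
Mean log2 expression (vertical axes, not starting at 0) over 9 lists of marker genes in each library, coloured by title; lines are means and error bars SD (n = 5 per column). The columns overlap for all 9 lists. The granule neuron differentiation list lies at 9.02 to 9.14 in the Gsk3a-low libraries and 9.03 to 9.26 in the no-Cre controls. Of these controls no-Cre 4, a narrow array, lies at 9.03 and the rest at 9.18 to 9.26. The brainstem list spreads from 4.17 to 5.53 within the no-Cre controls.

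Within the Gsk3a-low libraries the title made no called difference. Between the 3 titled DKO and the 2 titled Math1-Cre control 0 of 22180 genes (0%) passed in limma, and 1758 had an unadjusted p under 0.05. Leaving out DKO 2 or Math1-Cre 2 gave 4 called genes each and leaving out no-Cre 4 gave 1. With so few libraries a p above the threshold does not show that the titles act alike. Pmaip1 differed by -0.26 ± 0.28 between the titles, Cdkn1a by 0.07 ± 0.13, Fst by -0.00 ± 0.18, Chrna3 by -0.09 ± 0.20 and Atoh1 by 0.16 ± 0.23 (SE; limma adjusted p = 0.78, 0.88, 0.996, 0.897 and 0.839).

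The other Cre-labelled libraries served as a second comparison, and 302 genes (1.36%) passed in limma, 143 higher and 159 lower in the Gsk3a-low libraries. Both comparisons share the Gsk3a-low libraries, so they are not independent. Among the genes called against the no-Cre controls and described above by all their values, Atoh1, Bmp4 and Erbb4 did not pass here. Pmaip1 differed by 3.28 ± 0.20, Cdkn1a by 1.24 ± 0.09, Fst by 2.51 ± 0.12, Chrna3 by -1.20 ± 0.13 and Mfap4 by -1.40 ± 0.10 (SE), with limma adjusted p-values of 1.41e-07, 6.57e-07, 3.53e-09, 7.6e-05 and 9.44e-07. Without Math1-Cre 1 the count was 201 and without Math1-Cre 2 it was 196. Wif1, a secreted WNT inhibitor whose gene is a WNT target and the largest change of any listed gene, gives the scale: it differed by 3.69 ± 0.13 from the no-Cre controls and by 3.63 from the other Cre-labelled libraries (limma adjusted p = 1.13e-07 and 1.11e-09).

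**Figure D5:**
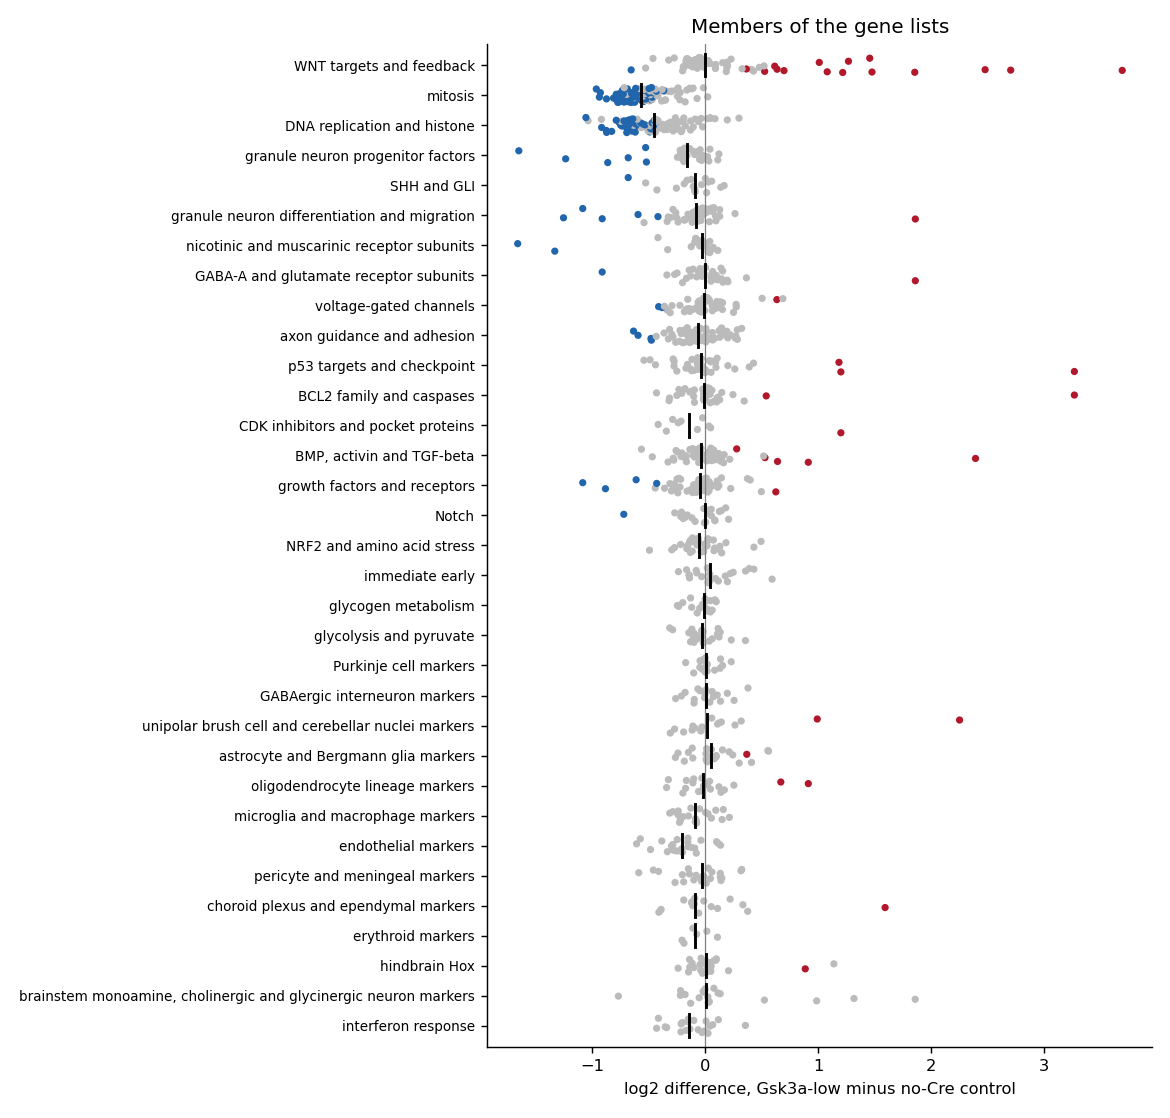
Log2 difference of Gsk3a-low minus no-Cre (horizontal axis) for every measured member of the 33 gene lists, 1 point per gene; red and blue points passed limma's adjusted p under 0.05 as higher and lower, grey points did not, and black bars are list medians. Outside the top 3 lists the medians lie between -0.20 and 0.06, and the called genes are few points far from the bar, such as Pmaip1 at 3.27 in 2 lists and Chrnb4 at -1.65.

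Genes beside Gsk3a were looked at because the selected libraries share a low value there. Of 1959 genes tested on chromosome 7, which carries Gsk3a, 20 (1.02%) were called, against 1.69% of all genes tested. Among the 10 nearest measured neighbours, 5 on each side, 1 was called, Erf, a transcriptional repressor gene next to Gsk3a, at 6.66, 6.56, 6.56, 6.74 and 6.73 against 7.17, 7.05, 7.11, 6.85 and 6.93. It differed by -0.37 ± 0.08 (SE; limma adjusted p = 0.0384), a call that held only without no-Cre 4 when single libraries were left out, and did not pass against the other Cre-labelled libraries (adjusted p = 0.411).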

How the data were processed

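The deposited values are log2 expression, 1 per array row and library, which the authors made with RMA and Partek 6.6 on genome build mm9, per the submitters' processing notes; their order and settings: not given in the sources used here. They were used as deposited. Of 41345 rows, 23521 had 1 gene symbol, 1814 several and 16010 none; 23328 of the first matched RefSeq's GRCm38.p6 table by gene ID. The brightest row stood for each of 1082 genes with more than 1 row, which left 22180 genes. The Gsk3a row has several symbols and was only described. Libraries were grouped as the opening says, limma (3.58.1, R 4.3.3; eBayes, two-sided p, Benjamini-Hochberg over all genes) was fitted to the 10 libraries (8 residual degrees of freedom), and all 15 entered the comparison with the other Cre-labelled. Array number limits precision. The fits were tested on simulated data. Python 3.11.15 and matplotlib 3.10.9 were used for tables and figures.

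Genes were named by rule: outside the WNT, mitosis and replication lists, the 15 largest rises and 15 largest falls among called genes whose groups do not overlap (receptor, unnamed, small noncoding and pseudogene transcripts passed over), up to 4 called members of each of 33 lists (1130 of 1252 memberships measured), and Gsk3b, Wif1, Cdkn1a, Fst, Chrna3 and Atoh1; further list members were named with their values seen. The members, lists and naming rule were chosen with earlier results of these data known. Alternatives were a filter below the 30th percentile, quantile normalization, median centring, trend and robust moderation, the replicate number as a block, array weights, array spread as a covariate, another row per gene and fits without single or grouped libraries; leaving out the DKO-titled libraries or the narrow arrays was added after the data were seen.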

Additional observations from a re-analysis of the deposited data

Results flagged for a closer look

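Of 198 groups of 5 values looked at, 9 held a library far from the other 4 by Dixon's criterion, which chance alone meets at a rate of about 0.05. In the Gsk3a-low libraries Esyt3 was 5.18 in DKO 5 and 6.26 to 6.52 in the rest. Kif22, a mitotic kinesin, was 5.73 in DKO 2 and 6.10 to 6.24 in the rest. Hey1 was 8.53 in Math1-Cre 1 and 8.40 to 8.42 in the rest, a gap that stands out only because the rest agree so closely. Hoxb1 was 4.54 in Math1-Cre 2 and 3.35 to 3.56 in the rest. The mean of the pericyte and meningeal markers was 7.25 in DKO 5 and 6.71 to 6.76 in the rest.

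In the no-Cre controls Igfbp2 was 8.35 in no-Cre 5 and 8.74 to 8.84 in the rest. The other 3 all concern no-Cre 4, the array of narrowest spread. Its mean was 5.72 for the WNT list (5.88 to 5.91 in the rest), 7.01 for growth factors and receptors (7.16 to 7.20) and 7.09 for the NRF2 and amino acid stress genes (7.39 to 7.43). The part of array spread in these values was not tested.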

How the results depend on the processing

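Against the no-Cre controls 375 genes were called, and between 384 and 459 were with trend and robust moderation, quantile normalization, median centring, the dim filter, array spread as a covariate or all 15 libraries in the fit. Array weights gave 707. With the replicate number as a block there were 201 calls, and 126 of 302 against the other Cre-labelled libraries. The block was not used further, because the labels name no litter by which the numbers would pair the samples. Deviations of same-numbered libraries correlated from -0.44 (DKO 5 with no-Cre 5) to 0.44 (DKO 4 with no-Cre 4). DKO 4, DKO 5 and no-Cre 4 are the arrays of narrow spread, so these correlations cannot settle whether the numbers pair the samples. Leaving out 1 library at a time gave 202 to 503 calls, 196 to 332 against the other Cre-labelled and 0 to 4 between the titles within the Gsk3a-low libraries. Without the Math1-Cre-titled pair 131 genes were called, without the 3 DKO-titled libraries 126 and without the replicate-5 libraries, which share a code in their descriptions, 243. Against the other Cre-labelled libraries centring turned 143 higher and 159 lower into 189 and 138, and within the Gsk3a-low libraries it moved the median of all genes from -0.05 to 0.07. Fewer libraries leave fewer residual degrees of freedom; otherwise the cause was not tested.

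Over the 65 named genes and every setting, 1313 of the gene and setting pairs kept direction and side of the threshold, 176 lost the call and 5 turned direction. All 5 were Gsk3b, whose -0.02 became 0.02 under array spread as a covariate and under quantile normalization, 0.03 with centring and 0.00 without the replicate-5 libraries, and ran from -0.08 without DKO 2 to 0.02 without DKO 4 when single libraries were left out.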
